A study of Homo sapiens with 6 samples.

Results

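Heparan sulphate is a sulphated sugar chain carried by proteins at the cell surface and in the matrix. Glypicans, which are anchored to the membrane by a lipid, and syndecans, which span it, are the main surface carriers, and their chains bind growth factors such as the fibroblast growth factors and present them to receptors. The binding depends on where the chain is sulphated, which is set in the Golgi by N-deacetylase/N-sulphotransferases and by 2-O-, 6-O- and 3-O-sulphotransferases. The members described here are 10 such genes. They comprise the glypicans GPC1, GPC4 and GPC6, the syndecans SDC1, SDC2 and SDC4, and the sulphotransferases HS6ST1, HS6ST2, HS2ST1 and NDST1. They were taken by symbol from the 33835 named genes of the count table, and all 10 had a row. The set was chosen by differences between the study's groups that were already known, in particular the absence of GPC4 and HS6ST2 reads in shE6AP, so the members' differences are given as a description, without a test.

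The cells were DU145, an established human prostate cancer line. In the shE6AP group (3 libraries) they had been transduced with a short hairpin against E6AP, the ubiquitin ligase encoded by UBE3A, and in the wobble group (3 libraries) with the control for that hairpin. Both groups received doxycycline at 0.2 µg/ml for 2.5 days, in DMEM with fetal calf serum. The labels do not describe the wobble sequence, do not tell clones from pools, and do not say whether libraries of a group came from separate cultures, so the spread between them may be technical.

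RNA sequencing gave 21558506 to 28228823 gene reads in shE6AP libraries and 27336700 to 30488217 in wobble libraries. Levels are CPM, which divides each count by its library's TMM-scaled size, given as mean ± SD over 3 libraries, and 1 read was worth 0.0330 to 0.0468 CPM. UBE3A stood at 14.22 to 14.96 CPM in shE6AP libraries and at 54.01 to 57.88 CPM in wobble libraries. All 5 epithelial markers checked (KRT8, KRT18, KRT19, EPCAM and CDH1) were present, summing to 1051 to 1087 CPM in shE6AP and 917 to 947 CPM in wobble. They did not move as one, since KRT8, KRT18 and EPCAM were higher in shE6AP and KRT19 and CDH1 lower. EPCAM had 36.35 ± 0.682 CPM in shE6AP and 17.7 ± 0.692 CPM in wobble, and CDH1 27.1 ± 1.61 CPM in shE6AP and 30.05 ± 1.37 CPM in wobble. Of 5 luminal prostate markers, KLK2 and KLK3 had no row. Among blood cell markers, PTPRC was at 0.359 ± 0.0712 CPM in shE6AP and 0.267 ± 0.0992 CPM in wobble, and CD14 rose to 2.41 ± 0.485 CPM in shE6AP, against 0.699 ± 0.207 CPM in wobble (edgeR adjusted p = 1.47e-09). Of 7 fibroblast and endothelial markers 6 had a row, summing to 17.4 to 19.1 CPM in shE6AP and 13.2 to 16.1 CPM in wobble, most of it COL1A1, while DCN had 5 reads in shE6AP and 12 reads in wobble and LUM 1 read in shE6AP and 0 reads in wobble. CD14 and the fibroblast and endothelial sum thus moved with the group, and their part in the results below was not tested. In such bulk samples, fewer cells with a transcript and less of it per cell cannot be told apart.

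Among the members, GPC4 and HS6ST2 were without a single read in shE6AP and plainly present in wobble. SDC2, SDC1 and NDST1 were higher in shE6AP, GPC1 and SDC4 slightly so. HS6ST1 was slightly lower, HS2ST1 overlapped between the groups, and GPC6 was near 0 in both groups.

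GPC1, the most abundant glypican, had 465, 473 and 461 CPM in shE6AP libraries 1 to 3, against 439, 421 and 412 CPM in wobble libraries 1 to 3. The lowest shE6AP library lay above the highest wobble library, and the log2 fold change of shE6AP over wobble was 0.14 (standard error, SE, 0.032). GPC4, a glypican best known from developing tissues, had 0 reads in each shE6AP library and 577, 579 and 520 reads in the wobble libraries, which is 19.04, 20.02 and 19.17 CPM. Taking 3 reads across the shE6AP libraries together as the floor (0.0406 CPM), GPC4 was at least 478-fold lower in shE6AP, a bound that covers counting error only. Without shE6AP library 1, and so with fewer reads behind the floor, the bound is 294-fold. GPC6 had 0, 1 and 0 reads in shE6AP and 0, 1 and 0 reads in wobble, too few to compare.

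SDC1, the main syndecan of epithelia, had 220 CPM in each of the shE6AP libraries, against 146, 140 and 141 CPM in wobble. Its groups were far apart compared with their spread (220 ± 0.371 CPM in shE6AP and 142 ± 3.37 CPM in wobble), with a log2 fold change of 0.63 (SE 0.0329). SDC2, which is typical of mesenchymal cells, had 5.92, 5.38 and 5.54 CPM in shE6AP and 1.06, 1.00 and 0.922 CPM in wobble. Every shE6AP library was thus several times above every wobble library, and the log2 fold change was 2.50 (SE 0.147), although the gene stayed at a low level. SDC4, a syndecan of focal adhesions, had 237, 233 and 239 CPM in shE6AP and 224, 219 and 216 CPM in wobble. These ranges did not overlap, but the distance between them was small, with a log2 fold change of 0.11 (SE 0.032).

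Of the enzymes that place sulphate at the 6-O position of glucosamine, HS6ST2 had 0 reads in each shE6AP library and 372, 370 and 390 reads in wobble, which is 12.3, 12.8 and 14.4 CPM. Against the same floor it was at least 324-fold lower in shE6AP (199-fold without shE6AP library 1). Its paralogue HS6ST1 had 17.8, 16.9 and 16.7 CPM in shE6AP and 19.0, 19.4 and 18.4 CPM in wobble. The ranges lay next to each other without overlap, with a log2 fold change of -0.14 (SE 0.0601). The table also holds its pseudogene HS6ST1P1, at 0.972 ± 0.0505 CPM in shE6AP and 1.04 ± 0.234 CPM in wobble, and reads may be split between the copies.

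HS2ST1, which sulphates the uronic acid at its 2-O position, had 72.1, 67.6 and 73.8 CPM in shE6AP and 71.4, 70.5 and 74.1 CPM in wobble, with overlapping ranges and a log2 fold change of -0.01 (SE 0.0394). NDST1, which opens the sulphation sequence by replacing acetyl with sulphate groups on glucosamine, had 275, 278 and 270 CPM in shE6AP and 210, 210 and 208 CPM in wobble. All shE6AP libraries lay above all wobble libraries, and the log2 fold change was 0.39 (SE 0.0317).

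**Figure D1:**
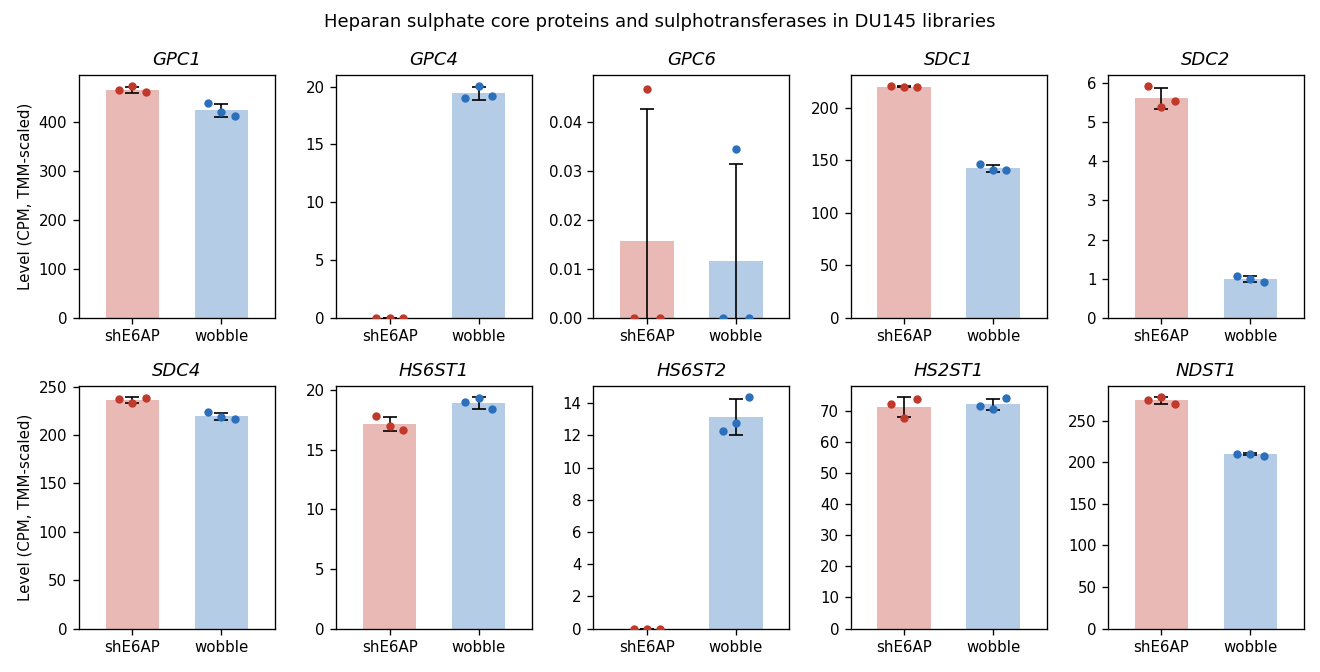
Level (vertical axes, TMM-scaled CPM, each from 0) of the 10 members in the shE6AP and wobble groups; points are libraries, bars the mean of 3 and error bars the SD, drawn from 0 upward. GPC4 and HS6ST2 are at 0 in all shE6AP libraries and at 19.04 to 20.02 and 12.3 to 14.4 CPM in wobble, while SDC1, SDC2 and NDST1 are higher in shE6AP.

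The low-count filter passed 9 of the 10 members, all but GPC6, and GPC4 and HS6ST2 passed through the wobble group alone. edgeR's fit over all 19433 genes tested called 5 members higher (GPC1, SDC1, SDC2, SDC4 and NDST1) and 3 lower (GPC4, HS6ST1 and HS6ST2), where 59.0% of all genes were called at an adjusted p under 0.05. The groups did not overlap in 8 of the members, against 62.5% of all genes tested. Since this contrast was used to pick the members, nothing is read from these counts. The call on HS6ST1 ended with upper-quartile or library-total scaling, with DESeq2, with a filter of 1 CPM in 3 libraries, against a fold of 1.2, and without shE6AP library 2 or 3 or wobble library 1 or 2. Those on GPC1 and SDC4 ended against a fold of 1.2.

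Levels of different genes were compared per length, as CPM per kilobase of annotated exon (RPKM, from GENCODE 29). In shE6AP the order was GPC1 (117 ± 1.56 RPKM), SDC4 (90.5 ± 1.08), SDC1 (66.3 ± 0.112), NDST1 (33.3 ± 0.476), HS2ST1 (9.78 ± 0.438), HS6ST1 (4.36 ± 0.150) and SDC2 (1.41 ± 0.0695), then GPC6 with 1 read and GPC4 and HS6ST2 at 0. In wobble it was GPC1 (106 ± 3.50 RPKM), SDC4 (84.0 ± 1.40), SDC1 (42.9 ± 1.01), NDST1 (25.5 ± 0.166), HS2ST1 (9.90 ± 0.258), HS6ST1 (4.81 ± 0.123), GPC4 (3.91 ± 0.107), HS6ST2 (2.85 ± 0.238), SDC2 (0.249 ± 0.0170) and GPC6. Neighbours in these orders did not overlap between libraries, except GPC6, GPC4 and HS6ST2 in shE6AP, and the order was the same with the longest transcript as the length. So in wobble the genes without reads in shE6AP lay above SDC2 and GPC6, with GPC4 below GPC1 and HS6ST2 below HS6ST1.

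Within each family the make-up differed between groups. GPC4 accounted for 0% of the summed glypican level per length in shE6AP, against 3.46 ± 0.161% in wobble. GPC1 accounted for 97.7 ± 0.322% in shE6AP and 93.8 ± 0.186% in wobble. The sum over the glypicans was 120 ± 1.43 RPKM in shE6AP and 113 ± 3.51 RPKM in wobble. The glypican sum was thus not lower in shE6AP, where GPC4 had no reads.

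Among the syndecans, SDC1 made up 39.2 ± 0.240% of the summed level per length in shE6AP and 29.4 ± 0.185% in wobble, and SDC3 made up 6.45 ± 0.0564% in shE6AP and 12.9 ± 0.0827% in wobble. SDC4 was the largest part in both groups, with 53.5 ± 0.264% in shE6AP and 57.6 ± 0.2495% in wobble. SDC2 remained below 1% of the sum in every library. The sum over the syndecans was 169 ± 1.23 RPKM in shE6AP and 146 ± 2.87 RPKM in wobble.

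The 6-O-sulphotransferases differed through HS6ST2, whose lack of reads in shE6AP was a reason for choosing the set. HS6ST2 supplied 0% of their summed level per length in shE6AP and 37.2 ± 2.44% in wobble, and HS6ST3 had 1 read in each group. The sum was 4.36 ± 0.148 RPKM in shE6AP and 7.66 ± 0.159 RPKM in wobble, so it was carried almost wholly by HS6ST1 in shE6AP. Over the 2-O-, 6-O- and N-sulphotransferases together, NDST1 made up 59.8 ± 0.806% of the sum in shE6AP and 49.5 ± 1.04% in wobble.

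**Figure D2:**
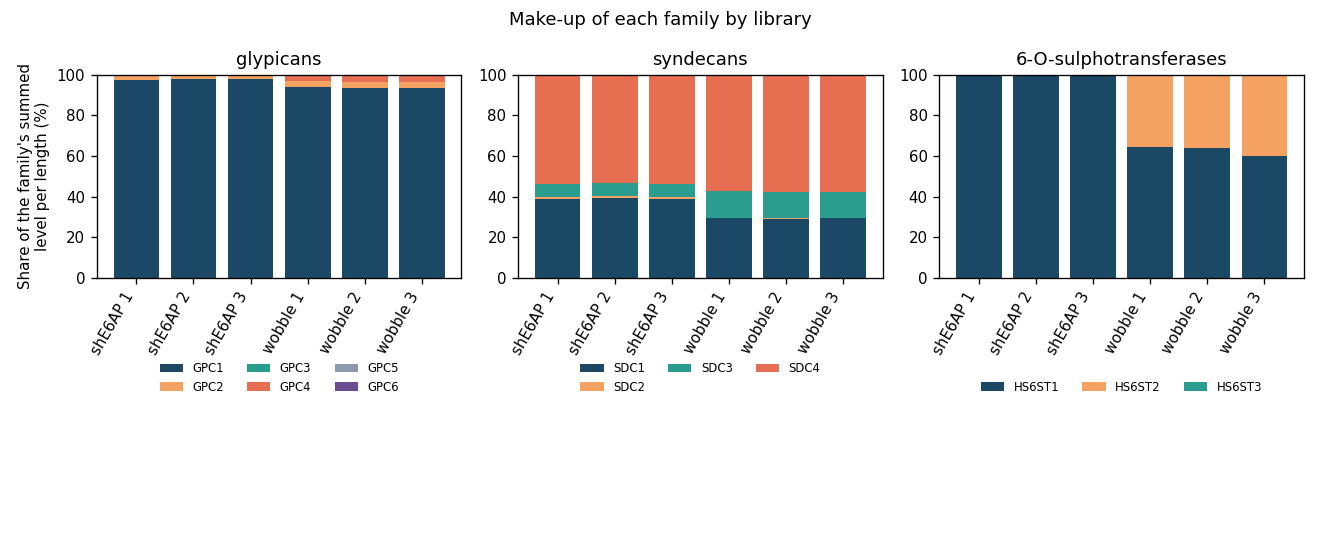
Share (vertical axis, percent) of each family's summed level per length that each gene supplied, for glypicans, syndecans and 6-O-sulphotransferases, in each shE6AP and wobble library (horizontal axis). HS6ST2 supplies 35.53% to 39.97% of the 6-O-sulphotransferase sum in wobble libraries and 0% in shE6AP libraries, and SDC3 takes a smaller share of the syndecans in shE6AP.

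GPC4 and HS6ST2 share a place in the genome that did not enter their choice. Both lie on chromosome X, and in RefSeq's gene order (GRCh38.p14, used here for order only, since the counts were made on hg19) USP26 and TFDP3 are the only protein-coding genes between them. Of the genes in between, only USP26 had a row, with 1 read in shE6AP and 4 reads in wobble. GPC3, the glypican on the other side of GPC4, had 0 reads in shE6AP and 2 reads in wobble. Whether the stretch between the members and beyond GPC4 as far as GPC3 was transcribed thus cannot be compared at this depth.

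The nearest expressed genes outside the pair were present in both groups. Of 28 annotated genes between the members and within 10 genes on either side, 7 had a row, and those tested were RAP2C and MBNL3, beyond HS6ST2. RAP2C, a small GTPase, rose to 49.6 ± 1.31 CPM in shE6AP, against 38.3 ± 1.196 CPM in wobble (log2 fold change 0.37, edgeR adjusted p = 4.99e-10). MBNL3, an RNA-binding splicing regulator, had 2.26 ± 0.215 CPM in shE6AP and 1.69 ± 0.322 CPM in wobble (log2 fold change 0.42, edgeR adjusted p = 0.0326), a call lost without either wobble library 1 or 2 or shE6AP library 2 or 3 (adjusted p of 0.0693 to 0.193) and with DESeq2 (0.125), without the low-count filter (0.0504) and against a fold of 1.2 (0.191).

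A wider window, chosen after the data had been seen, took 10 protein-coding genes on either side. Of its 22 genes other than the members 11 were tested, and 4 were called higher and 7 lower. Over all genes tested 28.6% were called higher and 30.4% lower. On the HS6ST2 side, ENOX2 fell to 10.3 ± 0.560 CPM in shE6AP, against 14.2 ± 0.446 CPM in wobble (edgeR adjusted p = 2.54e-07). On the GPC4 side, PHF6, a chromatin-associated protein, fell to 50.3 ± 0.127 CPM in shE6AP, against 63.5 ± 4.08 CPM in wobble (log2 fold change -0.33, edgeR adjusted p = 5.93e-09). HPRT1, of purine salvage, had 44.4 ± 2.30 CPM in shE6AP and 48.0 ± 2.23 CPM in wobble with overlapping ranges (edgeR adjusted p = 0.0393). Next to HPRT1, PLAC1 rose to 2.25 ± 0.184 CPM in shE6AP, against 1.38 ± 0.119 CPM in wobble (edgeR adjusted p = 0.000479). Farther out, MOSPD1 fell to 8.26 ± 0.339 CPM in shE6AP, against 25.6 ± 1.198 CPM in wobble (log2 fold change -1.63, edgeR adjusted p = 2.82e-24). FAM127C (RTL8B) fell to 1.10 ± 0.305 CPM in shE6AP, against 9.56 ± 0.702 CPM in wobble (log2 fold change -3.09, edgeR adjusted p = 3.96e-23), but its family has closely similar copies among which reads may be split. The only genes of the window that had no reads in shE6AP and more than 2 reads in wobble were therefore GPC4 and HS6ST2.

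**Figure D3:**
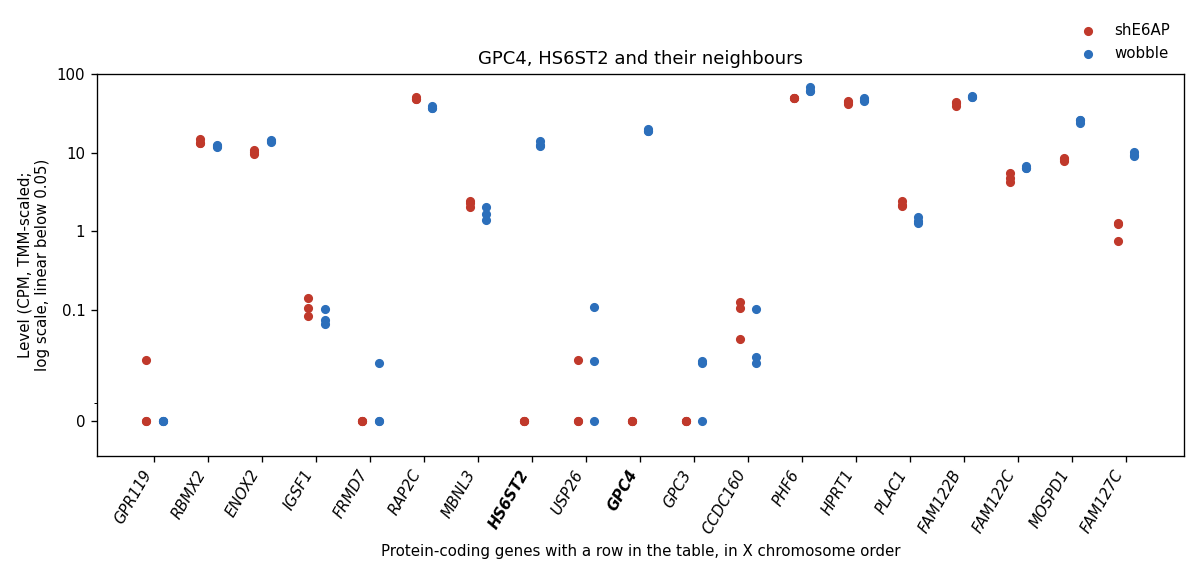
Level (vertical axis, TMM-scaled CPM, logarithmic and linear below 0.05) of protein-coding genes with a row in the table, in their order on chromosome X (horizontal axis, not to distance), with shE6AP libraries left of wobble libraries and the members in bold. GPC4 and HS6ST2 are at 0 in shE6AP, while RAP2C, MBNL3, PHF6 and HPRT1 on either side have reads in all libraries.

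Genes with the pattern of GPC4 and HS6ST2 were rare in the table. Of 16059 genes with a mean of at least 1 CPM in wobble, 3 had 0 reads in all shE6AP libraries, and the third besides GPC4 and HS6ST2 was LARGE, on chromosome 22. LARGE encodes a glycosyltransferase of alpha-dystroglycan, and had 0 CPM in shE6AP against 6.07, 6.15 and 5.46 CPM in wobble. It was at least 145-fold lower in shE6AP. The opposite pattern, 0 reads in all wobble libraries and a mean of at least 1 CPM in shE6AP, was found in 6 of 16186 genes, with ADAMTS12, BDKRB2, CAPN6, ETV1, MC5R and S100A9. Of these CAPN6 is also on chromosome X, with 2.79 ± 0.351 CPM in shE6AP against 0 CPM in wobble, and the other 5 are on chromosomes 1, 5, 7, 14 and 18.

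The promoters of GPC4 and HS6ST2 are shown because these members lack reads together in shE6AP, beside those of the paralogues GPC1 and HS6ST1, which had reads in every library. Each is the 250 bases before the annotated start, from RefSeq (GRCh38.p14), 5′ to 3′ on the gene's strand, with matches to the GC box (GGGCGG, or CCGCCC on the other strand) in capitals. GPC4 is at chrX:133415490-133415739 and HS6ST2 at chrX:132961371-132961620, both on the minus strand, GPC1 at chr2:240435413-240435662 on the plus strand and HS6ST1 at chr2:128318869-128319118 on the minus strand.
GPC4: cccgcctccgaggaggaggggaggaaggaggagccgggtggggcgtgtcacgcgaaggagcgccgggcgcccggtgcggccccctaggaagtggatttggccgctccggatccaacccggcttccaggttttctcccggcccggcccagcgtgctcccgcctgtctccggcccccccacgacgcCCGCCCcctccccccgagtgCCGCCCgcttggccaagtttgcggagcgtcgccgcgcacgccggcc
HS6ST2: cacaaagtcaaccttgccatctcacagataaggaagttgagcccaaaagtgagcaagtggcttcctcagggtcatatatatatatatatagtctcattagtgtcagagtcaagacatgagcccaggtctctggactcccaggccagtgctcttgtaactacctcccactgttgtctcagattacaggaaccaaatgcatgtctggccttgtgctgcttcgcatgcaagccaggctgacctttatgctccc
GPC1: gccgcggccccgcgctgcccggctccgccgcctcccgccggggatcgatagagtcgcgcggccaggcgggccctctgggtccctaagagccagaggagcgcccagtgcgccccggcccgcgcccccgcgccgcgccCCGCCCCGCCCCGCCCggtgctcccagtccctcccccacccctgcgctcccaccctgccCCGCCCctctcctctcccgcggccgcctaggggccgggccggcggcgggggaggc
HS6ST1: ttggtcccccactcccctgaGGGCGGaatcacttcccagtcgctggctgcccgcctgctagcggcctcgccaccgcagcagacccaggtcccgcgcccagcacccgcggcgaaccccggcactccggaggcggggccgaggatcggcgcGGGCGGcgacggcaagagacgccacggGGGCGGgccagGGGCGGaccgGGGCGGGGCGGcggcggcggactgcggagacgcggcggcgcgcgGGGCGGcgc
The GPC4 window had 190 G or C among its 250 bases and 32 CpG sites, at 0.891 of the number that its base composition predicts, and 2 GC boxes. The HS6ST2 window had 120 G or C, 1 CpG site (0.0704 of the predicted number) and no GC box. The paralogues both had CpG-rich windows, with 210 G or C, 36 CpG sites and 4 GC boxes for GPC1 and 201 G or C, 40 CpG sites and 7 GC boxes for HS6ST1, overlapping matches counted. Over 35116 RefSeq promoters the median was 58.0% GC and a CpG ratio of 0.558, and 42.6% held a GC box. The TATA motif TATAAA was found in none of the 4 windows on either strand, and 10.7% of all promoters hold it. The E-box CACGTG was likewise in none, against 6.34% of all promoters. The same held for CCAAT, which 32.0% of all promoters contain. The promoters of the genes that lack reads in shE6AP were thus unlike each other in CpG content. These matches are descriptions of letters, and RefSeq's start need not be the one used in these cells.

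The rest of the pathway was described with 92 further genes, of which 85 had a row and 76 were tested. In shE6AP 31 of these rose and 26 fell, with 19 not passing (edgeR, adjusted p under 0.05). Over all genes tested 28.6% were called higher and 30.4% lower. The median log2 fold change was -0.02 for the pathway genes and 0.01 for all genes tested. Against a fold of 1.2, 14 rose and 15 fell, and of the genes named below EXTL2, GLCE, PAPSS1, PAPSS2, ADAM10, MMP14, CASK, FGFR4 and SULF2 no longer passed. The shares over all genes belong to the main test and not to this fold.

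Other carriers of heparan sulphate moved in both directions. SDC3, the syndecan typical of neural tissue, fell to 73.1 ± 0.649 CPM in shE6AP, against 126 ± 3.28 CPM in wobble (log2 fold change -0.78, SE 0.0363, edgeR adjusted p = 1.54e-22). GPC2 had 6.95 ± 0.962 CPM in shE6AP and 7.85 ± 0.192 CPM in wobble and did not pass (edgeR adjusted p = 0.144), except without shE6AP library 1 (0.0188). GPC5 had 12 reads in shE6AP and 0 reads in wobble and was not tested. In the matrix, HSPG2, which encodes perlecan, rose to 368 ± 15.6 CPM in shE6AP, against 256 ± 6.80 CPM in wobble (log2 fold change 0.53, edgeR adjusted p = 1.1e-17). COL18A1, the collagen that yields endostatin, fell to 175 ± 0.989 CPM in shE6AP, against 306 ± 4.58 CPM in wobble (log2 fold change -0.81, edgeR adjusted p = 7.03e-25). TGFBR3, betaglycan, rose by 0.37 on the log2 scale (edgeR adjusted p = 1.28e-07), and AGRN, agrin, had 798 ± 9.61 CPM in shE6AP and 827 ± 21.9 CPM in wobble without passing, except without the low-count filter (edgeR adjusted p = 0.0372).

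Among chain synthesis genes, 2 of 5 linker enzymes and 3 of 5 chain polymerases were called, beside 59.0% of all genes tested. Nothing is read from these counts about single steps of synthesis. Of 5 linker enzymes tested, XYLT2, a xylosyltransferase that starts the chain, rose by 0.34 and B3GAT3, which completes the linker, fell by 0.50 on the log2 scale (edgeR adjusted p of 7.4e-09 and 1.54e-14), and 3 did not pass. Of 5 chain polymerase genes, EXT1, a subunit of the heparan sulphate copolymerase, fell to 79.5 ± 0.832 CPM in shE6AP, against 131 ± 2.95 CPM in wobble (log2 fold change -0.73, SE 0.0357, edgeR adjusted p = 1.24e-21). Its partner EXT2 had 82.2 ± 4.50 CPM in shE6AP and 84.4 ± 1.31 CPM in wobble and did not pass (edgeR adjusted p = 0.429). EXTL3 fell by 0.42 and EXTL2 rose by 0.32 on the log2 scale (edgeR adjusted p of 5.42e-12 and 3.52e-07).

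Apart from the members, 12 chain modifying enzymes were listed and 5 had enough reads to be tested. Of these 1 rose, 1 fell and 3 did not pass, so 40.0% were called, beside 59.0% of all genes tested. GLCE, the epimerase that makes iduronic acid, fell by 0.16 on the log2 scale (edgeR adjusted p = 0.00059). HS3ST1, a 3-O-sulphotransferase that makes the antithrombin site, was called higher with 1.18 ± 0.232 CPM in shE6AP and 0.714 ± 0.245 CPM in wobble (log2 fold change 0.73, edgeR adjusted p = 0.0103), but its ranges overlapped and the call ended with DESeq2 (0.0664), without shE6AP library 2 (0.051) and without wobble library 1 (0.0554) or 2 (0.0668). NDST2, the paralogue of NDST1, had 30.7 ± 1.37 CPM in shE6AP and 31.5 ± 2.36 CPM in wobble, and HS3ST5 had 4.02 ± 0.340 CPM in shE6AP and 4.17 ± 0.0481 CPM in wobble, neither passing.

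Of the enzymes that act on finished chains, HPSE, the heparanase that cuts them, rose to 72.1 ± 2.18 CPM in shE6AP, against 44.7 ± 0.490 CPM in wobble (log2 fold change 0.69, SE 0.0401, edgeR adjusted p = 4.42e-19). SULF2, which removes 6-O-sulphate outside the cell, had 0.469 ± 0.149 CPM in shE6AP and 0.256 ± 0.112 CPM in wobble. Its call (edgeR adjusted p = 0.0455) ended with DESeq2 (0.18), without the low-count filter (0.0784), against a fold of 1.2 (0.115), and without shE6AP library 1 (0.0788) or 3 (0.235) or wobble library 1 (0.207) or 3 (0.118). In lysosomal degradation 5 of 9 genes rose and 2 fell, beside 28.6% called higher and 30.4% lower over all genes tested. The log2 fold change was 0.49 for IDUA, the iduronidase, and -0.39 for GLB1, beta-galactosidase (edgeR adjusted p of 3.56e-08 and 2.79e-12).

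Supply of sulphate and sugar donors was called in 7 of 8 genes, 4 higher and 3 lower. Of all genes tested 59.0% were called, and this list's median log2 fold change was 0.07. SLC26A2, a sulphate transporter of the plasma membrane, rose to 185 ± 6.81 CPM in shE6AP, against 107 ± 7.56 CPM in wobble (log2 fold change 0.79, SE 0.039, edgeR adjusted p = 1.51e-21). The synthases of the sulphate donor PAPS moved apart, PAPSS1 rising by 0.16 and PAPSS2 falling by 0.16 on the log2 scale (edgeR adjusted p of 0.0014 and 0.000305). UGDH, which makes UDP-glucuronic acid, had 290 CPM in shE6AP and 284 CPM in wobble on average and did not pass.

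Chondroitin and dermatan sulphate enzymes, which extend the same linker into another chain, were called in 15 of 16 genes, 7 higher and 8 lower. Beside them, 59.0% of all genes tested were called, and the median log2 fold change of these enzymes was -0.07. CSGALNACT1, which commits the linker to chondroitin, fell to 10.8 ± 0.431 CPM in shE6AP, against 24.1 ± 0.820 CPM in wobble (log2 fold change -1.16, edgeR adjusted p = 6.42e-20). Its paralogue CSGALNACT2 rose to 65.0 ± 2.11 CPM in shE6AP, against 42.4 ± 1.01 CPM in wobble (log2 fold change 0.61, edgeR adjusted p = 5.25e-17). CHST7, a 6-O-sulphotransferase of chondroitin, fell by 0.92 and CHST12, a 4-O-sulphotransferase of chondroitin, by 0.47 on the log2 scale (edgeR adjusted p of 4.1e-10 and 6.03e-10).

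Among genes for release and adaptors of the core proteins, 2 of 8 rose and 3 fell, where 59.0% of all genes tested were called. SDCBP, syntenin, which binds syndecan tails, fell to 164 ± 2.26 CPM in shE6AP, against 213 ± 5.74 CPM in wobble (log2 fold change -0.38, edgeR adjusted p = 2.07e-13). NOTUM, an extracellular hydrolase that inactivates Wnt ligands, fell to 2.999 ± 0.447 CPM in shE6AP, against 6.37 ± 0.856 CPM in wobble (log2 fold change -1.08, edgeR adjusted p = 2.82e-10). MMP14, a membrane protease that can shed syndecans, fell by 0.16 on the log2 scale, and ADAM10, a sheddase, and CASK, which binds syndecan tails, rose by 0.17 and 0.14 (edgeR adjusted p of 0.000487, 1.18e-05 and 0.00132). The sheddase ADAM17 did not pass (edgeR adjusted p = 0.438).

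Of 12 tested ligands and receptors that bind heparan sulphate, 6 rose and 4 fell, against 59.0% called over all genes tested. MDK, midkine, fell to 9.51 ± 0.589 CPM in shE6AP, against 23.7 ± 0.438 CPM in wobble (log2 fold change -1.32, edgeR adjusted p = 2.19e-21), and VEGFA fell by 0.61 on the log2 scale (edgeR adjusted p = 6.62e-20). Receptors of the fibroblast growth factor family did not move as one. FGFR2 rose to 5.91 ± 0.169 CPM in shE6AP, against 2.42 ± 0.247 CPM in wobble, and FGFR3 fell to 4.89 ± 0.392 CPM in shE6AP, against 9.89 ± 0.555 CPM in wobble (edgeR adjusted p of 1.64e-12 and 5.91e-13). FGFR1 rose by 0.38 and FGFR4 by 0.27 on the log2 scale (edgeR adjusted p of 1.55e-12 and 1.69e-06). FGFBP1, a secreted carrier of fibroblast growth factors, rose by 1.29 on the log2 scale (edgeR adjusted p = 3.5e-10).

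**Figure D4:**
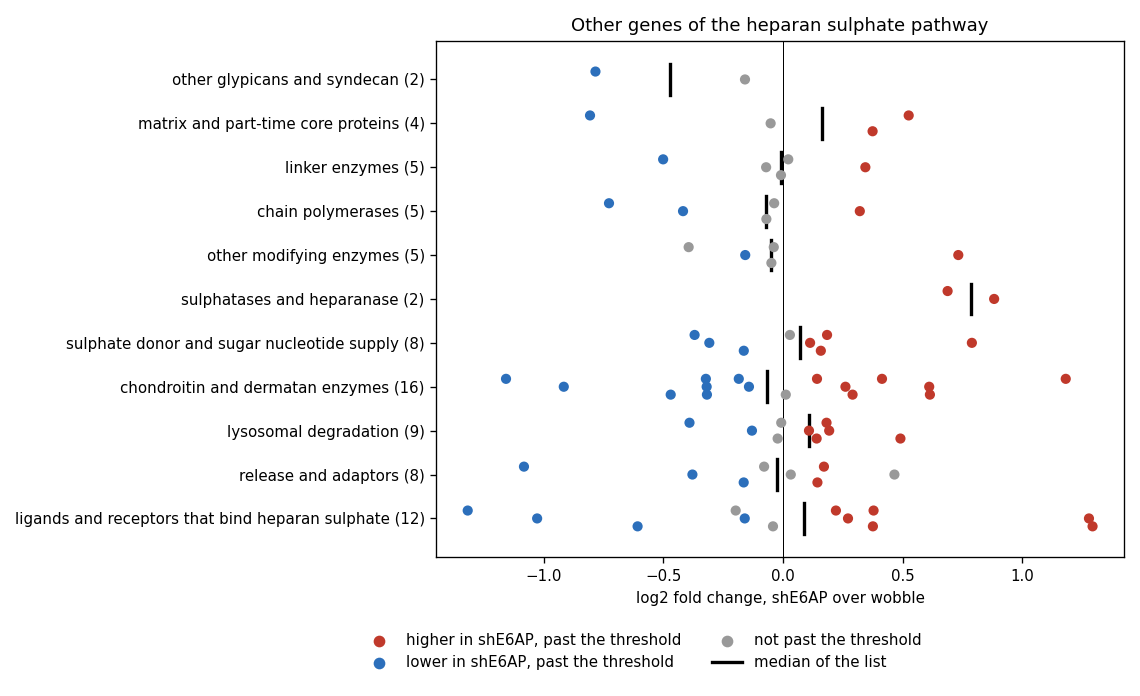
Fold change on the log2 scale, shE6AP relative to wobble (horizontal axis), of the tested pathway genes outside the members, by role (vertical axis, number tested in brackets); points are genes, coloured by edgeR's call at an adjusted p under 0.05, and black bars are list medians. Most roles hold genes on both sides of 0, from -1.32 for MDK to 1.29 for FGFBP1.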

How the data were processed

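The submitters' processing notes name TopHat2 2.0.13, Bowtie2, HTSeq and the build hg19. They give neither annotation nor strand setting. The TruSeq version 2 kit leaves strand unmarked, so reads of antisense or overlapping genes may be shared. Values in the deposited table are whole-number counts per gene symbol, not normalized. Of 33839 rows, 33835 entered library sizes. Left out were HTSeq's rows for reads outside genes (14.6% to 16.0% of reads) and ambiguous reads (2.05% to 2.21%), a row without a name (at most 4.59e-05%) and a row without values.

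These counts were analysed in edgeR 4.0.16 (R 4.3.3), using filterByExpr, TMM factors and a quasi-likelihood test for the shE6AP minus wobble difference, with Benjamini-Hochberg adjustment over the 19433 genes kept and a threshold of 0.05. SEs were obtained as log2 fold change divided by the root of F. Pairs of libraries in the same group had a chi-square over degrees of freedom of 1.76 to 3.54, above what sampling gives, so none was treated as a repeat deposit. An exact permutation test of 3 against 3 libraries cannot go below p = 0.1 for any gene. Alternatives used DESeq2 1.42.0, limma-voom (limma 3.58.1), other scalings and filters, a block for the replicate number, leaving out each library, and glmTreat against a fold of 1.2. The fit was checked on simulated counts. The members and gene lists were chosen with earlier results of these data known. Named were all members, up to 4 called genes per list by smallest p, genes beside the members with reads, and genes with 0 reads in one group. AGRN, EXT2, NDST2, UGDH, GPC2, GPC5, HS3ST5, ADAM17, CASK, PAPSS1, PAPSS2, FGFR2, FGFR4, FGFBP1 and the farther genes around GPC4 and HS6ST2 were named after their values were seen. Some marker genes are not reported here. Intervals and floors cover counting error only.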

Additional observations from a re-analysis of the deposited data

How the results depend on the processing

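Against a fold of 1.2, 3 members were called higher and 2 lower, and 14 pathway genes were higher and 15 lower. The share of all genes called is given for the main test only, so nothing is read from counts under other settings. Of the 2 neighbours called higher (RAP2C and MBNL3), 1 passed with DESeq2, without the low-count filter and against a fold of 1.2, and 1 to 2 passed with a library left out. In the window of protein-coding genes, added after seeing the data, 4 were higher and 7 lower, where 59.0% of all genes tested were called. NDST2, which did not pass, ranged from -0.09948 to 0.005941 on the log2 scale with a library left out. UBE3A kept its call and direction under all of these settings, at -1.97 to -1.91 on the log2 scale. No scaling moved the median of all genes tested by more than 0.0284. Libraries with the same number correlated at 0.0166 to 0.0438 in their deviations from the group means, and all 6 correlated best with their own number, a hint from the data only, since no label pairs them. With the replicate number as a block, 5 members were called higher and 3 lower, and 31 pathway genes higher and 27 lower. At this depth, genes with a few reads, such as GPC3, GPC6 and USP26, could not be compared.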
